A study of Arabidopsis with 4 samples.

Results

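The 10 genes described here encode the morning arm of the Arabidopsis circadian clock, namely 8 MYB-related transcription factors and 2 coactivators. They were taken from the table by locus identifier: CCA1 (AT2G46830, chromosome 2), LHY (AT1G01060, chromosome 1), RVE1 (AT5G17300), RVE2 (AT5G37260), RVE4 (AT5G02840) and RVE6 (AT5G52660) on chromosome 5, RVE7 (AT1G18330, chromosome 1), RVE8 (AT3G09600, chromosome 3), LNK1 (AT5G64170, chromosome 5) and LNK2 (AT3G54500, chromosome 3). Each of the 10 was found among the 32833 genes of the deposited table. Each also reached the mean of 1 TPM (TPM is a transcript level per unit of length, scaled to a fixed total in each library) over the libraries that was required for testing, as did 19764 genes in all.

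RNA of seedlings was sequenced in 4 libraries, 2 of the wild-type ecotype Col-0 and 2 of jmj28-2, a mutant in the same ecotype. Its name refers to JMJ28, which belongs to the KDM3 type of JmjC histone demethylases. Both genotypes were grown for 12 days on MS medium with 1% sucrose at 23 °C, in a daily cycle of 16 h light and 8 h dark. The sources used here do not give the nature of the mutation, the number of seedlings behind a library or the hour of harvest, nor do they say whether replicate libraries are from seedlings grown apart. JMJ28 itself stood at 7.63 and 7.70 TPM in the wild type and at 5.45 and 5.72 TPM in the mutant, lower in both but not past the test (limma adjusted p = 0.235). All 15 root markers and all 9 leaf markers on the lists used were above 0 in every library.

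In the plant clock, CCA1 and LHY are made around dawn and repress genes that peak later in the day, many of which carry a short promoter sequence called the evening element. The related REVEILLE (RVE) factors share their type of MYB domain. RVE4, RVE6 and RVE8 activate evening-element genes, among them PRR5 and TOC1, and RVE1, RVE2 and RVE7 are known mainly for passing clock and light signals to growth and other outputs. LNK1 and LNK2 have no DNA-binding domain of their own and are brought to promoters by RVE proteins, where they act as coactivators. The pseudo-response regulators PRR9, PRR7, PRR5 and TOC1 follow one another through the day and repress CCA1 and LHY in turn. Because these transcripts change through the day, a level in a seedling harvest is a level at 1 unstated hour.

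In jmj28-2, 8 of the 10 genes had a lower mean level than in Col-0, and in 7 of them both mutant libraries lay below both wild-type libraries: CCA1, LHY, RVE4, RVE7, RVE8, LNK1 and LNK2. Among all genes tested, 42.7% had a lower mean and 17.6% had both mutant libraries below both wild-type ones. None of the 10 had both mutant libraries above both wild-type ones, which was seen in 29.0% of all genes tested. The median log2 change of the 10 was -0.21, beside 0.03 for all genes tested. The differences were small, with means at most 25.6% lower, and 0 of the 10 passed limma at an adjusted p under 0.05 in either direction, where 0.0354% of genes tested passed as lower and 0.0405% as higher. At an unadjusted p under 0.05, 5 of the 10 were lower (CCA1, RVE4, RVE8, LNK1 and LNK2) and 0 were higher, beside 4.36% and 9.50% of all genes tested. The 10 genes were chosen with earlier results of these data known, and they are not replicates of one another. These counts beside the shares of all genes are therefore a description and no test. With any 1 library left out, the log2 change ran from -0.58 to -0.27 for CCA1 and from -0.29 to -0.15 for RVE4. It ran from -0.40 to -0.30 for RVE8, -0.23 to -0.13 for LNK1 and -0.52 to -0.25 for LNK2. Such a fit has 1 library in a genotype, so no count at an unadjusted p is taken from it. In whole seedlings, fewer cells of a type and less RNA per cell cannot be told apart.

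**Figure D1:**
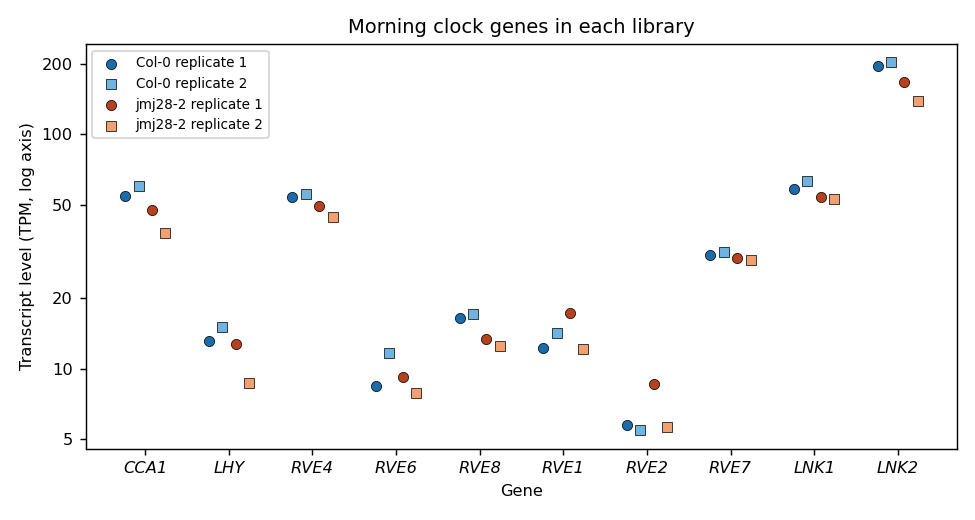
Transcript level of each gene (TPM, log axis) in the 4 libraries, with Col-0 in blue, jmj28-2 in orange, replicate 1 as circles and replicate 2 as squares. LNK2 stands highest at 138.98 to 202.84 TPM, and both orange points lie below both blue points for 7 genes, RVE1, RVE2 and RVE6 being the exceptions.

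The 10 genes covered a wide span of levels. In Col-0, LNK2 was the most abundant at 199.7 ± 4.49 TPM (SD, n = 2 here and below), with only 3.90% of all genes tested at a higher level over the 4 libraries. LNK1, CCA1 and RVE4 followed at 60.8 ± 3.10, 57.2 ± 3.90 and 54.9 ± 0.990 TPM, and within this trio neighbours overlapped. RVE7 came next at 31.0 ± 0.799 TPM, then RVE8 at 16.8 ± 0.545 TPM, LHY at 14.1 ± 1.42 TPM and RVE1 at 13.3 ± 1.39 TPM, the last pair overlapping. RVE6 at 10.1 ± 2.26 TPM and RVE2 at 5.60 ± 0.205 TPM were the lowest. In jmj28-2 the order changed in 2 places. RVE4 stood above CCA1, with overlapping libraries, and RVE1 stood above RVE8 and LHY, again with overlap between neighbours from RVE1 down to RVE2. LNK2 made up 43.7% and 42.6% of the summed level of the 10 genes in the Col-0 libraries and 41.0% and 39.7% in the jmj28-2 libraries.

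CCA1 and LHY form the core dawn pair. CCA1 measured 54.48 and 60.00 TPM in the wild type, against 47.36 and 37.79 TPM in the mutant. All 4 values stood in order of genotype, with jmj28-2 replicate 2 the lowest by 9.57 TPM and a gap of 7.12 TPM between the genotypes. The mean was 25.6% lower in jmj28-2, a log2 change of -0.43 (SE 0.121, 95% interval -0.73 to -0.12), with an unadjusted p of 0.0162 and a limma adjusted p of 0.266. Without jmj28-2 replicate 2 the change was -0.27. Of all genes tested, 2.81% had a change as low or lower. LHY, its partner, measured 13.06 and 15.07 TPM in the wild type, against 12.70 and 8.67 TPM in the mutant. Its groups were separated by only 0.36 TPM, and most of the difference lay in jmj28-2 replicate 2. The log2 change was -0.39 (SE 0.184, 95% interval -0.85 to 0.08, limma adjusted p = 0.431), and -0.13 without that library. The sum of both genes was 67.5 and 75.1 TPM in the wild type, against 60.1 and 46.5 TPM in the mutant.

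RVE4, RVE6 and RVE8 are the activating MYB factors. RVE8 measured 16.38 and 17.15 TPM in the wild type, against 13.41 and 12.44 TPM in the mutant. It was the only one of the 10 genes in which the gap between the genotypes, 2.97 TPM, was wider than the range within each (0.77 and 0.97 TPM), with the mutant lower. That held for 5.82% of all genes tested. The mean was 22.9% lower, a log2 change of -0.35 (SE 0.0810, 95% interval -0.56 to -0.15, limma adjusted p = 0.231), and leaving out any 1 library kept it between -0.40 and -0.30. RVE4 measured 54.15 and 55.55 TPM in the wild type, against 49.40 and 44.59 TPM in the mutant. Its mean was 14.3% lower, with a gap of 4.75 TPM and a log2 change of -0.22 (95% interval -0.41 to -0.04, limma adjusted p = 0.304). RVE6 measured 8.47 and 11.66 TPM in the wild type, against 9.25 and 7.88 TPM in the mutant. Here the genotypes overlapped, since the widest spread was between the Col-0 libraries, and the interval of the log2 change ran from -0.62 to 0.23. Without Col-0 replicate 2 the RVE6 change was 0.01, with the sign turned.

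RVE1, RVE2 and RVE7 did not share a direction. RVE1, which promotes auxin synthesis and hypocotyl growth, measured 12.28 and 14.25 TPM in the wild type, against 17.35 and 12.11 TPM in the mutant. The 2 mutant libraries held both the highest and the lowest value. Its log2 change of 0.12 (95% interval -0.33 to 0.58) turned to -0.12 without jmj28-2 replicate 1. RVE2 measured 5.74 and 5.45 TPM in the wild type, against 8.60 and 5.66 TPM in the mutant. One mutant library stood well above the rest, and the other lay within the Col-0 range, so the log2 change of 0.28 (95% interval -0.21 to 0.76) was 0.01 without jmj28-2 replicate 1. RVE7, a gene that responds early to phytochrome, measured 30.45 and 31.58 TPM in the wild type, against 29.64 and 29.03 TPM in the mutant. Its libraries were the closest together of the 10, with a gap of 0.81 TPM, a mean 5.42% lower and a 95% interval of the fold from 0.847 to 1.06. The limma adjusted p of the trio was 0.795 for RVE1, 0.570 for RVE2 and 0.634 for RVE7. Their summed level was 48.5 and 51.3 TPM in the wild type, against 55.6 and 46.8 TPM in the mutant, with overlap.

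The LNK coactivators were both lower in jmj28-2. LNK2 measured 196.49 and 202.84 TPM in the wild type, against 167.89 and 138.98 TPM in the mutant. The genotypes were 28.6 TPM apart, about as far as the 28.91 TPM between the mutant libraries. The mean was 23.2% lower, a log2 change of -0.38 (SE 0.0989, 95% interval -0.64 to -0.13), with an unadjusted p of 0.0109 and a limma adjusted p of 0.245. Without jmj28-2 replicate 2 the change was -0.25. LNK1 measured 58.61 and 62.99 TPM in the wild type, against 54.27 and 52.84 TPM in the mutant. Its gap of 4.34 TPM was close to the 4.38 TPM between the Col-0 libraries, and its mean was 11.9% lower (log2 change -0.18, 95% interval -0.34 to -0.01, limma adjusted p = 0.333). LNK2 thus had the larger difference of the pair in TPM and on the log2 scale, though their intervals overlap and the difference between them was not tested. The LNK2 to LNK1 ratio was 3.35 and 3.22 in Col-0 and 3.09 and 2.63 in jmj28-2.

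**Figure D2:**
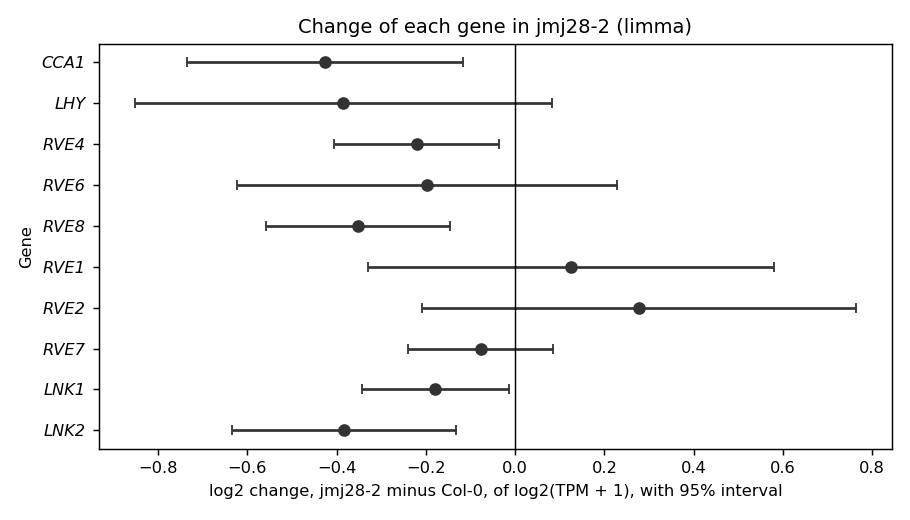
Log2 change of each gene in jmj28-2 against Col-0 on the log2(TPM + 1) scale, with points for the limma estimate and bars for its 95% interval (n = 2 libraries per genotype). The intervals of CCA1, RVE4, RVE8, LNK1 and LNK2 lie below 0, and those of the other 5 genes cross it.

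**Figure D3:**
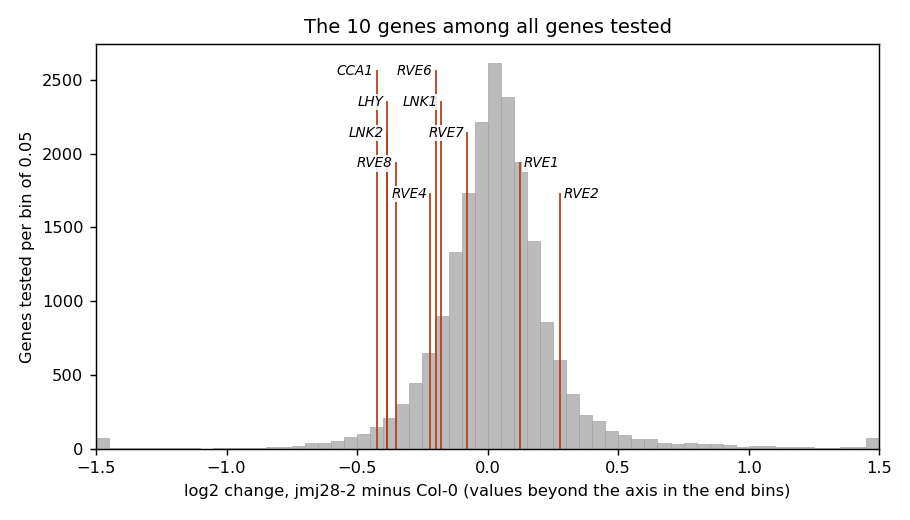
Number of genes tested per bin of 0.05 in log2 change (grey bars), with red lines at the 10 genes. CCA1, LHY, LNK2 and RVE8 lie in the lower tail between -0.43 and -0.35, where 2.81% to 4.25% of genes tested had a change as low or lower, and RVE2 lies on the upper side at 0.28.

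Most of the 10 genes also differed in the same direction between libraries of 1 genotype, by unlike amounts. Every one of the 10 was lower in jmj28-2 replicate 2 than in replicate 1, by a median of -0.24 on the log2 scale. Of all genes tested, 62.9% were lower and the median was -0.05. RVE7 and LNK1 differed by -0.03 and -0.04, less than that median over all genes. Of the 10, 9 were higher in Col-0 replicate 2 than in Col-0 replicate 1, beside 51.1% of all genes tested. The median difference was 0.08 for the 10 and 0.00444 for all genes tested. RVE2 went the other way at -0.06, and RVE4 and LNK2 differed by only 0.04 and 0.05. In 9 of the 10, jmj28-2 replicate 2 held the lowest value of the 4 libraries, as it did for 31.7% of genes tested, and RVE2 was the exception. Most markers of both tissues had a lower mean in jmj28-2 as well, the root markers mainly through jmj28-2 replicate 2. Of the 15 root markers 13 had a lower mean in jmj28-2, with a median log2 change of -0.255 beside the -0.21 of the 10 clock genes, and in 3 both mutant libraries lay below both wild-type ones, with 0 at an unadjusted p under 0.05. The summed level of the root list was 2216 and 2167 TPM in the wild type, against 2336 and 1855 TPM in the mutant. Most of that sum came from PYK10 alone. Without PYK10 it was 249.0 and 243.5 TPM in the wild type, against 258.5 and 153.2 TPM in the mutant. In 14 of the 15, replicate 2 of jmj28-2 was the lowest library, and no defining marker was at 0. The median log2 level of the list, relative to the Col-0 mean, was 0.05 in jmj28-2 replicate 1 and -0.52 in replicate 2. Of the 9 leaf markers 8 had a lower mean in jmj28-2, with a median log2 change of -0.17. Both mutant libraries lay below both wild-type ones in 6 of the 9, and 3 were lower at an unadjusted p under 0.05. Of all genes tested, 17.6% and 4.36% were so, which also stand beside the 3 and 0 of the 15 root markers. The leaf list summed to 78440 and 77810 TPM in the wild type, against 70640 and 77220 TPM in the mutant. Its median log2 level, relative to the Col-0 mean, was -0.21 in jmj28-2 replicate 1 and -0.12 in replicate 2, so that both mutant libraries were low. The part of either tissue list in the clock values was not tested. With jmj28-2 replicate 2 left out, the log2 changes of the 7 genes without overlap ran from -0.30 for RVE8 to -0.06 for RVE7, and those of RVE1 and RVE2 were 0.37 and 0.54 (unadjusted p = 0.0454 and 0.0119, limma adjusted p = 0.388 and 0.372).

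**Figure D4:**
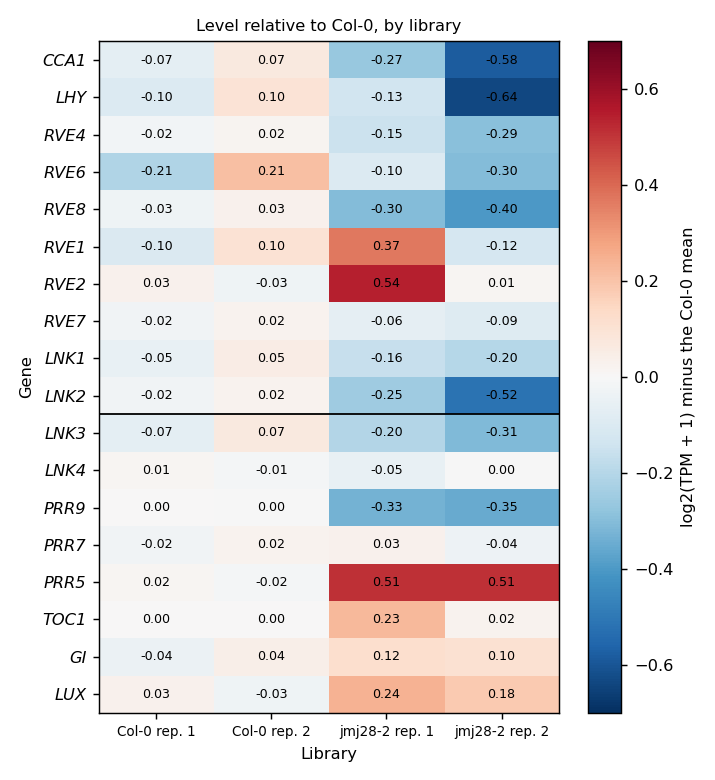
Difference of log2(TPM + 1) in each library from the Col-0 mean, with the 10 genes above the line and 8 other clock genes below it, red for higher and blue for lower. CCA1, LHY and LNK2 are at -0.58, -0.64 and -0.52 in jmj28-2 replicate 2 and at -0.27, -0.13 and -0.25 in replicate 1, while PRR5 is at 0.51 in both.

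Ratios of 2 genes within a library do not depend on how libraries are scaled to each other, and they carry no test here. Of the 45 pairs that the 10 genes form, 17 had overlapping genotypes and 28 did not. The share over pairs of all genes tested was not counted. Among single genes tested, 17.6% had both mutant libraries below both wild-type ones and 29.0% had both above, which is another measure. The 45 pairs are built from 10 genes, so they are not independent of one another. The pairs described below were picked with their values in view. CCA1 to LHY stood at 4.17 and 3.98 in Col-0 and at 3.73 and 4.36 in jmj28-2, with overlap. LNK2 to CCA1 likewise overlapped, at 3.61 and 3.38 against 3.55 and 3.68, as did CCA1 to RVE8, at 3.33 and 3.50 against 3.53 and 3.04. Other pairs did not overlap. CCA1 to RVE1 was 4.44 and 4.21 in Col-0 and 2.73 and 3.12 in jmj28-2, and CCA1 to RVE7 was 1.79 and 1.90 against 1.60 and 1.302. Both ratios were lower in the mutant libraries, as was that of LNK2 to LNK1. RVE4 to RVE8 was higher in them, at 3.31 and 3.24 against 3.68 and 3.58.

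Set against PRR5, an afternoon repressor of CCA1, 9 of the 10 genes had a lower ratio in both mutant libraries than in both wild-type ones, RVE2 being the exception. Against TOC1, the evening partner of CCA1 in mutual repression, 8 of the 10 did, RVE1 and RVE2 being the exceptions. These counts share 1 denominator each and so are not independent of one another. Both denominators were themselves higher in both mutant libraries, with log2 changes of 0.51 for PRR5 and 0.13 for TOC1. Of all genes tested, 97.0% had a change as low as that of PRR5 or lower. A gene of unchanged level would therefore also have a lower ratio, and the share over all genes tested was not counted. CCA1 to TOC1 was 3.61 and 3.97 in Col-0 and 2.65 and 2.46 in jmj28-2. CCA1 to PRR5 was 3.43 and 3.86 against 2.07 and 1.66. RVE8 to PRR5, a gene that RVE8 activates, was 1.03 and 1.104 against 0.587 and 0.545.

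**Figure D5:**
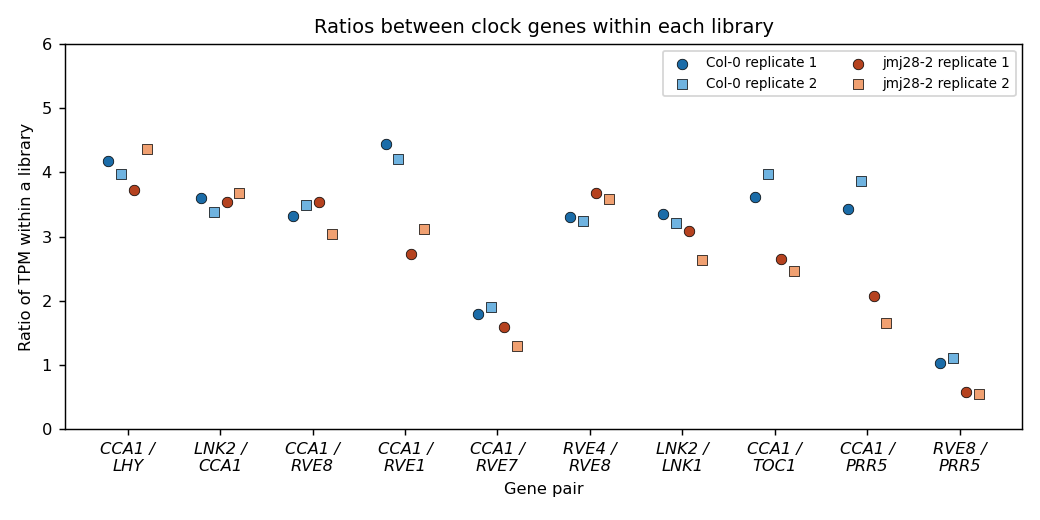
Ratio of TPM between gene pairs within each library, with Col-0 in blue and jmj28-2 in orange. The left 3 pairs have overlapping genotypes. The next 4, also among the 10 genes, do not, with RVE4 to RVE8 higher in jmj28-2 and the others lower. The right 3, which set CCA1 or RVE8 against TOC1 or PRR5, are lower in both jmj28-2 libraries. TOC1 and PRR5 were themselves higher in both jmj28-2 libraries, so a gene of unchanged level would also have a lower ratio.

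The nearest relatives of the 10 genes were LNK3 and LNK4, RVE3 and RVE5, and RVE7L. LNK3 measured 49.94 and 54.91 TPM in the wild type, against 45.30 and 42.11 TPM in the mutant, lower in both mutant libraries (log2 change -0.26, limma adjusted p = 0.281). LNK4 had 46.42 and 45.72 against 44.46 and 45.89 TPM, with overlap. RVE5 was the only relative tested with a higher mean, at 6.82 and 7.30 against 7.91 and 7.81 TPM (log2 change 0.14, limma adjusted p = 0.568). RVE3 had 2.75 and 4.84 against 4.12 and 1.49 TPM, and RVE7L lay under the filter with no value above 0.34 TPM. Of the 4 relatives tested, 0 passed limma.

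Among 13 day-phased and evening-phased clock genes, 12 were tested and 0 passed in either direction, with 4 lower and 8 higher means and a median log2 change of 0.08. PRR9, the earliest of the pseudo-response regulators, measured 34.85 and 34.82 TPM in the wild type, against 27.51 and 27.04 TPM in the mutant. It was the only one of the 12 with both mutant libraries lower (log2 change -0.34, limma adjusted p = 0.198). In 6 of the 12 both mutant libraries were higher. Over all genes tested these shares were 17.6% lower and 29.0% higher, and 42.7% had a lower mean. PRR5 had 15.89 and 15.54 against 22.86 and 22.82 TPM, a log2 change of 0.51 (limma adjusted p = 0.142) and the smallest unadjusted p of the list. LUX, a subunit of the evening complex, had log2 change 0.21, FKF1, a blue-light receptor of the afternoon, 0.43, and GI, which acts with FKF1, 0.11. All of these 3 had both mutant libraries above both Col-0 libraries, with limma adjusted p of 0.351, 0.325 and 0.524. TOC1, outside the rule for naming genes and taken up for the ratios, had 15.09 and 15.10 against 17.85 and 15.36 TPM.

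Regulators and partners of CCA1 and LHY had small differences. Of 15 listed, 14 were tested, 0 passed limma and 0 had an unadjusted p under 0.05. At that unadjusted p, 4.36% of all genes tested were lower and 9.50% higher. The log2 changes of the list ran from -0.09 to 0.18 with a median of 0.02. CHE, a TCP factor that represses CCA1, measured 40.14 and 37.09 TPM in the wild type, against 41.06 and 46.67 TPM in the mutant (limma adjusted p = 0.444), and its log2 change of 0.18 was 0.09 without jmj28-2 replicate 2. LWD1, a coactivator of CCA1, had 22.52 and 22.29 against 24.66 and 24.50 TPM (limma adjusted p = 0.451). TCP22, which recruits LWD proteins to the CCA1 promoter, had a log2 change of 0.08, which ran from 0.03 without Col-0 replicate 1 to 0.13 without Col-0 replicate 2. The histone demethylase LDL1, a partner of CCA1 and LHY, had one of 0.07, which was 0.00791 without jmj28-2 replicate 2 and 0.14 without jmj28-2 replicate 1. SDG2, an H3K4 methyltransferase, had one of -0.06, turning to 0.00488 without jmj28-2 replicate 2.

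Of 16 genes downstream of the clock, 12 were tested and 0 passed in either direction, with 5 lower and 7 higher means. Over all genes tested, 42.7% had a lower mean. In 2 of the 12 both mutant libraries were lower and in 4 both were higher, beside 17.6% and 29.0% of all genes tested. At an unadjusted p under 0.05 in limma, 1 was lower and 2 were higher, beside 4.36% and 9.50%. CDF1, a DOF repressor of flowering, measured 19.08 and 18.41 TPM in the wild type, against 14.25 and 15.21 TPM in the mutant (log2 change -0.33, limma adjusted p = 0.232). The bHLH growth regulators PIF4 and PIF5 went opposite ways without overlap, PIF4 from 75.1 ± 5.35 to 65.6 ± 3.59 TPM and PIF5 from 83.4 ± 5.82 to 95.8 ± 0.665 TPM (limma adjusted p = 0.369 and 0.314). GRP7, an evening-phased RNA-binding protein gene, had 403.48 and 398.47 against 450.29 and 437.25 TPM (log2 change 0.15, limma adjusted p = 0.326). DREB1C, a cold-response regulator, had 0.95 and 2.40 against 2.90 and 4.11 TPM (limma adjusted p = 0.362), and its log2 change ran from 0.39 without Col-0 replicate 1 to 1.19 without Col-0 replicate 2.

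Likeness of pattern was measured as the distance between log2(TPM + 1) profiles over the 4 libraries, each centred on its own mean, and is a description only. Among the tested clock genes, CCA1 was nearest to LNK2 (0.0837) and then to LHY (0.142), and LNK2 was nearest to CCA1 and then to RVE8 (0.125). RVE8 was nearest to PRR9 (0.0712). LNK1 was nearest to LNK3 (0.0928), as was RVE4 (0.0836), and LHY to CCA1. RVE2 was nearest to RVE1 (0.243), RVE1 to the light-signalling factor HY5 (0.224), RVE6 to the auxin synthesis gene YUC8 (0.0845) and RVE7 to PRR7 (0.0776). With 4 libraries many other genes can be as near. Counting LNK2 itself, 24 of all genes tested lay as close to CCA1 as LNK2 did. Counted likewise, 41 lay as close to RVE8 as PRR9 did, and 1049 as close to RVE7 as PRR7 did. The count was 45 for LNK2 and CCA1, 85 for LHY and CCA1, and 27 for RVE6 and YUC8. It was 293 for RVE4 and LNK3, 646 for LNK1 and LNK3, 440 for RVE2 and RVE1, and 693 for RVE1 and HY5.

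Gene models on the RefSeq assembly TAIR10.1 overlap another gene for 3 of the 10. RVE1 overlaps AT5G17305, which measured 22.84 and 5.20 TPM in the wild type, against 38.22 and 39.07 TPM in the mutant. LNK1 overlaps AT5G64160, at 18.94 and 16.91 against 19.79 and 18.86 TPM, and LNK2 overlaps 2 genes with no value above 0.29 TPM. The sources used here do not say whether counting used strand, so RVE1 and LNK1 values could include reads of these partners. CCA1 and PRR9 lie near each other with 3 genes between them, and RVE4 and PRR7 with 4. In the first pair both genes were lower in both mutant libraries. In the second RVE4 was lower and PRR7 measured 78.02 and 80.76 TPM in the wild type, against 80.96 and 77.37 TPM in the mutant.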

How the data were processed

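The deposited table gives 1 value per gene in each library. Its label says FPKM, but the columns sum to 998943 to 999014, so the deposited values were read as TPM. TopHat, RSEM and edgeR were used on the build TAIR10, per the submitters' processing notes, and no source used here names versions or the annotation. Sequencing depth cannot be had from TPM, so it is unknown, and no interval for counting error is given. Since every library has the same total, abundant transcripts affect the values of all others.

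Genes with a mean of at least 1 TPM were tested on log2(TPM + 1), a scale that understates changes of low genes. The test was limma 3.58.1 in R 4.3.3, with a term for genotype alone, moderated variances with a trend on intensity, 2 residual and 3.18 prior degrees of freedom, two-sided p-values and Benjamini-Hochberg adjustment over all 19764 genes. Such p-values reflect only how these libraries vary, possibly for technical reasons, and an exact permutation of 2 against 2 cannot go below p = 0.333. The procedure was tested on simulated data. Of the value columns, 0 belonged to unmatched samples. Names of all 84 listed genes were found in a RefSeq table on TAIR10.1, used only for names, chromosomes, gene order and overlaps.

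The 10 genes and the lists around them were chosen with earlier results of these data known. The text names the 10 genes, JMJ28, and from each clock list up to 5 tested genes with the smallest p. Others named are said to be outside that rule or serve as relatives, nearest patterns or neighbours. Alternatives changed the pseudocount, filter, scaling, trend, robustness and replicate term, or left out 1 library. Figures used matplotlib 3.10.9.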

Additional observations from a re-analysis of the deposited data

How the results depend on the processing

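With limma, 0 of the 10 genes were called in either direction under all 13 alternatives, the replicate block among them, and adjusted p ran from 0.145 to 0.991. Of the 130 log2 changes of the 10 genes under alternatives, 128 kept their direction. The 2 that turned were RVE1, at -0.12 to 0.37 when 1 library was left out, and RVE6, at -0.41 to 0.0107. Among 19 other named clock genes 0 were called, and 2 turned: RVE3 (-0.91 to 0.13) and SDG2 (-0.13 to 0.00488). Counts at an unadjusted p and of genes without overlap were put through these alternatives after the data were seen. The count of the 10 genes lower at an unadjusted p under 0.05 was 5 as reported. It was 3 without the trend, 4 with the replicate block and 6 under quantile normalization. Over all genes tested the lower count was 861 as reported, and 852, 808 and 1364 under those settings in that order. The higher count of the 10 was 0 as reported. Fits that left out 1 library had 1 library in a genotype, so no such count is taken from them. The count with every jmj28-2 library below every Col-0 library was 7 as reported and 7 to 9 leaving out 1 library, a step that can only keep or raise it.

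Replicate numbers do not pair the libraries by any label, and deviations from the group means correlated at 0.0162 across genes. With the replicate block, 12 genes higher and 6 lower were called over all genes, beside 8 and 7 without it. Scaling by size factors changed the split of all genes at an unadjusted p under 0.05 from 1878 higher and 861 lower to 1472 and 1292, and quantile normalization to 1422 and 1364. Because depth is unknown, differences in low genes such as RVE2 cannot be set against counting error, and with 2 libraries per genotype the 95% intervals of LHY, RVE1, RVE2 and RVE6 span changes of the size seen in CCA1, in 1 direction or the other.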
